A study of Mus musculus with 12 samples.

Results

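The genes described here are 8 members of the p53 pathway and of the families of cyclin-dependent kinase (CDK) inhibitors, namely Trp53, Mdm2, Ccng1, Gadd45a, Cdkn1a, Cdkn1b, Cdkn2a and Cdkn2b. They were taken by gene symbol from the transcript tables of the RNA-seq libraries, where they have 35 of 137767 transcripts and are 8 of 54446 genes. Peaks were assigned to a gene when they overlapped its annotated body or the 5 kb on either side by at least 1 bp, in mm10. Gene coordinates were those of GENCODE M21, a gene annotation on the same assembly.

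The study asked where the Paf1 complex sits on chromatin in mouse embryonic stem cells (mESCs) and in NIH3T3 cells, a mouse fibroblast line. It made ChIP-seq of Ctr9, a core subunit of that complex, and of H3K27ac, an acetylation mark of active promoters and enhancers, in both cell types. In mESCs it also made ChIP-seq of NELFA, a subunit of the pausing factor NELF, and of RNA polymerase II phosphorylated at serine 5 or serine 2 of its tail (RNAPII Ser5p and RNAPII Ser2p), which mark early and elongating polymerase. RNA-seq was made in both cell types, and each of these 9 measurements rests on 1 library, so values are given side by side without a test or a spread between replicates. The mESCs were the E14TG2a line and both cell types were cultured with serum and LIF. Ctr9 carried GFP at its end by knock-in in both lines, in pools of sorted GFP-positive cells and not in clones, and NELFA carried GFP in a tagged mESC line that also served for RNAPII Ser5p. No drug, damage or knockdown was applied in the samples used here. The labels give the RNA-seq samples by cell line only.

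The lines matched their labels in the marker genes. All 7 pluripotency markers had at least 1 TPM (transcripts per 1000000, a level scaled for transcript length) in mESCs, with a summed level of 5824 TPM led by Dppa5a at 3190 TPM. In NIH3T3 cells that list summed to 27.2 TPM, of which Klf4 made 26.3 TPM, and 4 of its genes were at 0. All 7 fibroblast markers were at 1 TPM or more in NIH3T3 cells, with a summed level of 4281 TPM led by Vim at 1829 TPM. In mESCs 4 of the 7 passed that level, the sum was 173 TPM and Vim alone was at 162 TPM, while Col1a1 was at 0.203 TPM. A list of 6 genes of early differentiated cells summed to 4.98 TPM in mESCs and 4.73 TPM in NIH3T3 cells, with Gata4 the highest in both.

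The protein p53, product of Trp53, is a transcription factor that is held at low levels by the ubiquitin ligase Mdm2 and accumulates after DNA damage. It then switches on genes that stop the cell cycle, repair DNA or kill the cell, among them Cdkn1a, Gadd45a, Ccng1 and Mdm2 itself, which closes a feedback loop. CDK inhibitors bind CDKs or their cyclin complexes and hold cells in G1, and the Cdkn2a locus also encodes Arf, which inhibits Mdm2. Mouse embryonic stem cells are known for a short G1 phase and for low levels of CDK inhibitors.

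Cdkn1a and Cdkn2a have several starts, and their upstream sequences are shown because the levels below differ between those starts, and at Cdkn1a the peaks as well. Each sequence ends just before an annotated start and is written in the direction of the gene, from RefSeq promoters of GRCm38.p6, in which all 8 genes had an entry. In the Cdkn1a sequences, capitals mark the central CATG of each decamer of a p53 response element, the motif GGGCGG and the motif TATAA. The Cdkn1a sequences lie at chr17:29090729-29090975 and chr17:29093519-29093768 on the plus strand, and the Cdkn2a sequences at chr4:89294654-89294869 and chr4:89282193-89282442 on the minus strand, where capitals again mark GGGCGG.
Cdkn1a, upstream start: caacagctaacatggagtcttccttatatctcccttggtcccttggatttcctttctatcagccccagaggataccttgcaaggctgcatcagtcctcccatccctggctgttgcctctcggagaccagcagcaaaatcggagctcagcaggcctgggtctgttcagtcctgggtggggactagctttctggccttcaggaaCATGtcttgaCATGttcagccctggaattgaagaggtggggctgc
Cdkn1a, downstream start: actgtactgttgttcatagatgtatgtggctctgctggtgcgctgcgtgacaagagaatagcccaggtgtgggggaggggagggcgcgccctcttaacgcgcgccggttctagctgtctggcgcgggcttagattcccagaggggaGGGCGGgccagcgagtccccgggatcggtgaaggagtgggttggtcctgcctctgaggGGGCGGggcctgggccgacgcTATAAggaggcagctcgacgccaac
Cdkn2a, Arf start: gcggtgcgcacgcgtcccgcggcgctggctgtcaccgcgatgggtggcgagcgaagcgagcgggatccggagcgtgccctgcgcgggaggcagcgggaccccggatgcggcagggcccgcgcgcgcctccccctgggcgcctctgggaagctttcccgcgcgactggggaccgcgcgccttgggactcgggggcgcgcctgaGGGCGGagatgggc
Cdkn2a, p16Ink4a start: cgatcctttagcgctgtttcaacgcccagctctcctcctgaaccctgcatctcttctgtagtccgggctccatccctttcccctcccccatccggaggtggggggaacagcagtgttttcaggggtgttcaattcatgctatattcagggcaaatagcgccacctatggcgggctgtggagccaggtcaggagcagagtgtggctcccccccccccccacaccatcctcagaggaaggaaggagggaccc

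The 4 windows differed in base composition. Over the 250 bases before each RefSeq start, GC content was 54.0% at the upstream start of Cdkn1a and 64.8% at its downstream start, with 2 and 19 CpG dinucleotides. At Cdkn2a the Arf window had 78.4% GC and 40 CpG dinucleotides, against 60.0% and 7 in the p16Ink4a window. TATAA on the strand of the gene was found in 16.0% of all 32851 RefSeq promoters of this length, and among the windows of the 8 genes only in that of the downstream Cdkn1a start. GGGCGG on either strand was in 32.7% of promoters.

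The 20-base p53 response element of Cdkn1a, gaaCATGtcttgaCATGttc, lies at chr17:29090928-29090947 and is centred 39 bps upstream of the annotated gene start. The search asked for 2 decamers with no spacer, each with C, then A or T in both middle positions, then G in its core, and allowed 1 mismatch to purines before and pyrimidines after the cores over the whole site. That tolerance was set after the Cdkn1a sequence had been seen to miss the strict form by 1 base, so the count of matches is a description only. Within 5 kb of the gene start, 3 of the 8 genes held such a site, as did 1.26% of the 21905 windows of protein-coding genes. With no mismatch allowed, none of the 8 genes and 0.205% of all windows held one. Elements with a spacer or with a mismatch in a core were not searched for, so a gene without a match can still hold one. The other matches were intronic, in Ccng1 at chr11:40754936-40754955 (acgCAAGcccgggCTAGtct, minus strand) and in Cdkn2b at chr4:89308400-89308419 (agaCATGtccggtCTTGctc, minus strand), with the cores in capitals.

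In RNA level the 8 genes spanned a wide range, and Trp53 was the highest of them in both libraries. The level of a gene was the TPM of its most abundant transcript, which is the study's choice for gene levels. Brackets give the 95% exact Poisson interval of the estimated reads behind it, which covers counting error only. In mESCs the order was Trp53 at 228 TPM (223 to 233), Ccng1 at 69.9 TPM (67.7 to 72.1), Gadd45a at 41.2 TPM (38.3 to 44.2), Mdm2 at 40.2 TPM (38.5 to 41.9), Cdkn1b at 29.5 TPM (27.5 to 31.5), Cdkn1a at 11.4 TPM (10.4 to 12.5), Cdkn2a at 5.26 TPM (4.25 to 6.44) and Cdkn2b at 0.874 TPM (0.548 to 1.32). Gadd45a and Mdm2 were neighbours whose intervals overlapped. In NIH3T3 cells the order was Trp53 at 152 TPM (148 to 156), Ccng1 at 109 TPM (106 to 111), Mdm2 at 38.0 TPM (36.4 to 39.6), Cdkn1a at 33.0 TPM (31.4 to 34.8), Cdkn1b at 16.6 TPM (15.2 to 18.1) and Gadd45a at 11.1 TPM (9.67 to 12.6), with Cdkn2a and Cdkn2b listed at 0. Gadd45a thus had rank 3 in mESCs and rank 6 in NIH3T3 cells, and Cdkn1a rank 6 and rank 4. Trp53 was above 97.9% of the protein-coding genes with a level above 0 in mESCs and above 96.2% of them in NIH3T3 cells.

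**Figure D1:**
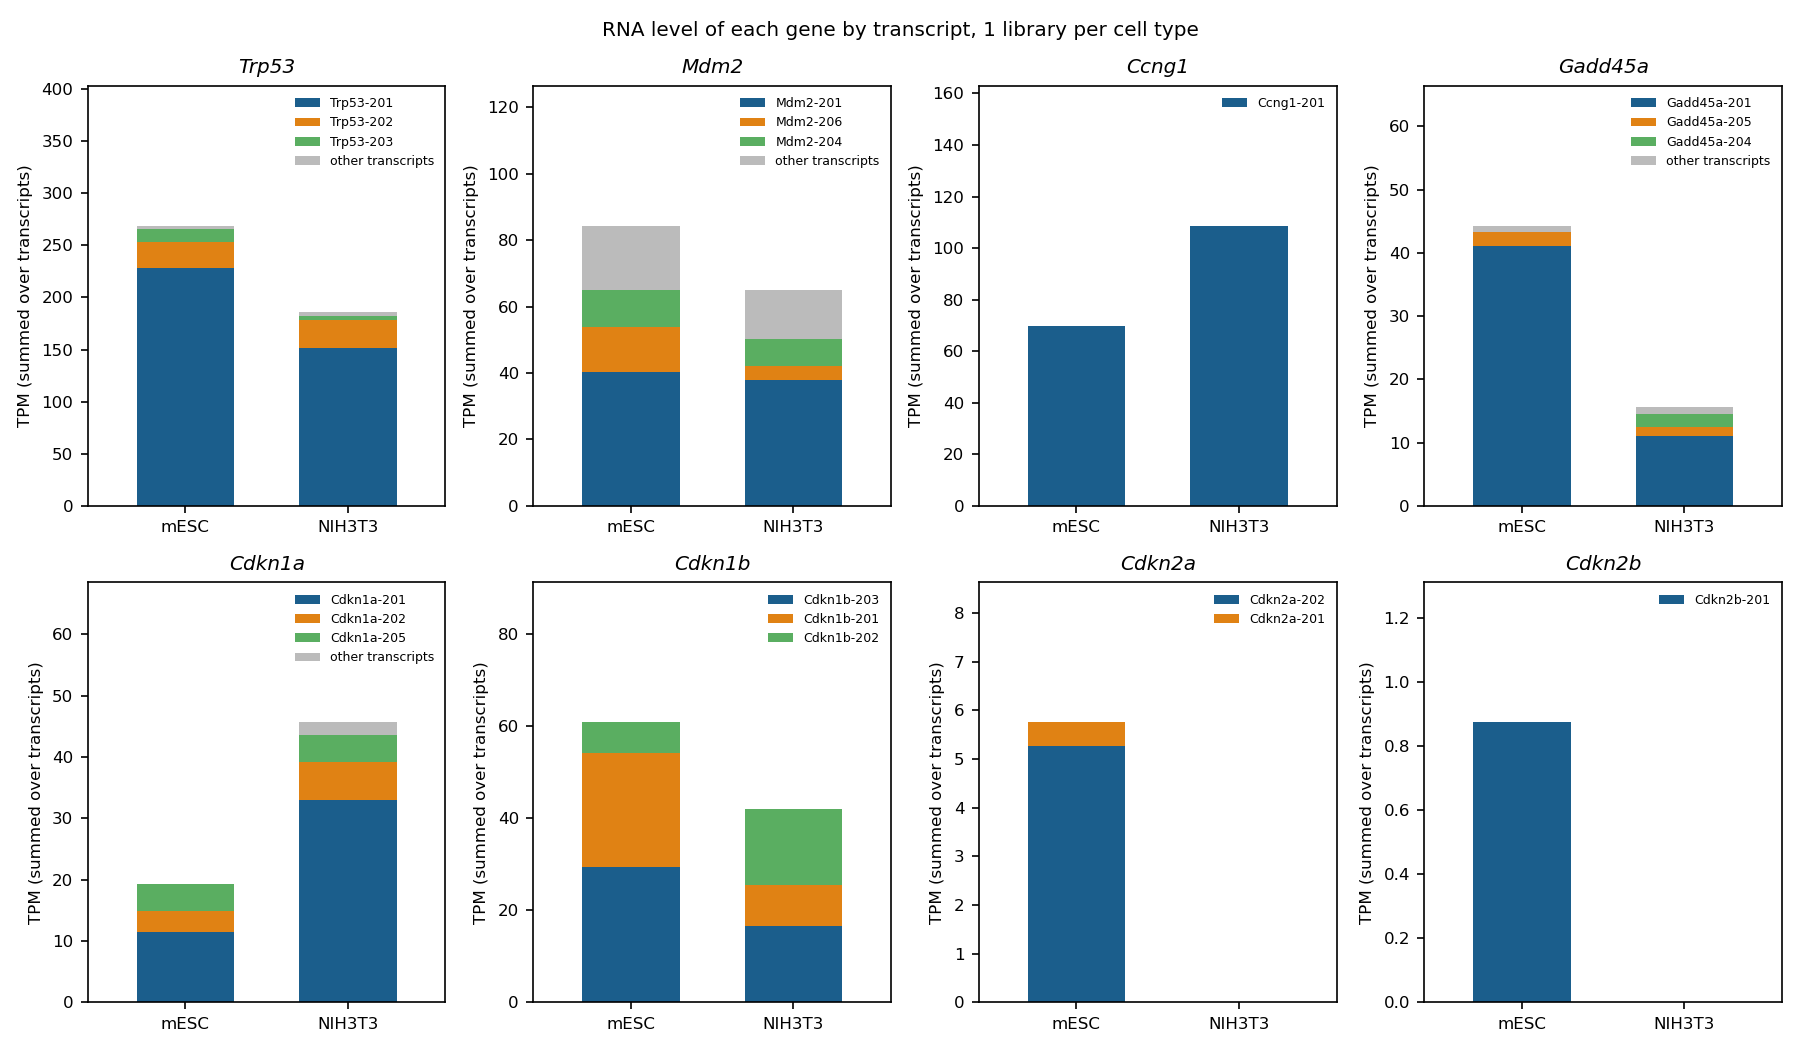
Each panel is 1 gene and each bar 1 RNA-seq library, with the height giving TPM summed over the transcripts of the gene (y axis, from 0, its own scale in each panel) and the colours the 3 most abundant transcripts. Cdkn1a and Ccng1 were higher in NIH3T3 cells, the Cdkn2a and Cdkn2b bars were at 0 there, and Cdkn1b-202 took 10.8% of the Cdkn1b sum in mESCs and 39.2% in NIH3T3 cells.

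Between the cell types, 3 of the 7 genes with at least 1 TPM in either library differed by 2-fold or more. Cdkn1a was higher in NIH3T3 cells, Gadd45a and Cdkn2a were higher in mESCs, and Trp53, Mdm2, Ccng1 and Cdkn1b were within 2-fold, while Cdkn2b was below the TPM limit. Among the 12379 protein-coding genes that passed the same limit, 20.0% were at least 2-fold higher in NIH3T3 cells and 23.8% at least 2-fold higher in mESCs, so a split of 1 and 2 among 7 was near what all genes showed. Ratios here are log2 of (TPM in NIH3T3 cells + 1) over (TPM in mESCs + 1), which understates changes of low genes. The median of this ratio was -0.58 over the 7 genes and -0.13 over all genes tested. In such bulk libraries fewer cells with an RNA and less RNA per cell cannot be told apart.

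Trp53 itself went from 228 TPM in mESCs to 152 TPM in NIH3T3 cells, a log2 ratio of -0.58. Its estimated reads were 9510 and 7124, and the 95% exact interval of their ratio per library total ran from -0.59 to -0.50 on the log2 scale. Most of its RNA was of 1 form in both lines, with Trp53-201 at 85.0% of the summed TPM in mESCs and 81.6% in NIH3T3 cells and Trp53-202 next, at 9.17% and 14.2%. The gene whose start lies 104 bps away on the other strand, Wrap53, which encodes a telomerase assembly factor and gives rise to antisense transcripts of Trp53, was at 14.4 TPM and 6.20 TPM.

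Mdm2 was at 40.2 TPM in mESCs and 38.0 TPM in NIH3T3 cells, a log2 ratio of -0.08, the smallest among the 8, which turned to 0.052 when the median of all genes was subtracted. Its summed transcripts gave 84.3 TPM and 65.0 TPM, a log2 ratio of -0.37. Beside Mdm2-201, the transcripts Mdm2-204, Mdm2-206, Mdm2-207 and Mdm2-209 were higher in mESCs. Mdm2-202, Mdm2-205 and Mdm2-208 were higher in NIH3T3 cells. The coding transcript Mdm2-201 made 47.7% of the sum in mESCs and 58.4% in NIH3T3 cells, and the processed transcript Mdm2-206 made 16.1% and 6.35%. The split of reads among overlapping transcripts was estimated by the authors' quantification, so such shares carry an error that the read counts do not show.

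The other p53 targets went in different directions. Ccng1, which encodes cyclin G1, was at 69.9 TPM in mESCs and 109 TPM in NIH3T3 cells, a log2 ratio of 0.63 with an interval of the read ratio from 0.59 to 0.70, and all of this level came from a single transcript. Gadd45a, which encodes a stress-induced protein that binds PCNA and CDK1, was at 41.2 TPM in mESCs and 11.1 TPM in NIH3T3 cells, 3.72-fold lower in NIH3T3 cells. Its log2 ratio was -1.80, with an interval of the read ratio from -1.91 to -1.51, from 792 and 265 estimated reads. The noncoding gene E230016M11Rik overlaps Gadd45a on the other strand and was at 0.551 TPM and 0.616 TPM. The libraries were strand-specific, but the strand setting of the quantification is not given in the sources used here.

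Cdkn1a, whose product p21 inhibits CDK2 complexes and is a classical p53 target, was at 11.4 TPM in mESCs and 33.0 TPM in NIH3T3 cells. This was 2.90-fold higher in NIH3T3 cells, a log2 ratio of 1.46, with 744 and 1878 estimated reads and an interval of the read ratio from 1.08 to 1.33. The interval lies below the TPM ratio because it counts all transcripts, while the level is that of Cdkn1a-201 alone. Cdkn1a-201 and Cdkn1a-205, from the downstream start 2793 bps to 2805 bps past the annotated gene start, made 81.7% of the summed TPM in mESCs and 82.2% in NIH3T3 cells. Those from the upstream start, next to the p53 response element printed above, made 18.3% and 14.2%. The rest, 3.54% in NIH3T3 cells and 0 in mESCs, was Cdkn1a-203, which starts 6924 bps past the gene start. The comparison of starts was chosen after the values had been seen. The p53-site start and the TATAA start therefore differed in level in the same order in both lines, with 3.52 TPM against 15.7 TPM in mESCs and 6.49 TPM against 37.5 TPM in NIH3T3 cells.

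Cdkn1b, whose product p27 inhibits CDK2 complexes and which is not known mainly as a p53 target, was at 29.5 TPM in mESCs and 16.6 TPM in NIH3T3 cells, a log2 ratio of -0.80. The estimated reads of the gene were nearly equal, 2445 and 2429, with an interval of the read ratio from -0.22 to -0.06. The gap between these values came with a change in transcript lengths. Cdkn1b-202, a transcript of 4552 bases, was at 6.56 TPM in mESCs and 16.5 TPM in NIH3T3 cells, whereas Cdkn1b-201, of 2393 bases, was at 24.7 TPM and 9.03 TPM. The log2 ratio of Cdkn1b thus depended on how a gene level was made, and with summed transcripts it was -0.52.

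Cdkn2a and Cdkn2b, the neighbouring genes of the INK4 family on chromosome 4, were read only in mESCs. Cdkn2a had 101 estimated reads in mESCs and 0 in NIH3T3 cells, and Cdkn2b had 22 and 0. Of the Cdkn2a reads, 93.0 were assigned to Cdkn2a-202, the Arf transcript, at 5.26 TPM, and 7.98 to Cdkn2a-201, the p16Ink4a transcript, at 0.491 TPM, whose start lies 12461 bps downstream. With a floor of 3 reads put in for NIH3T3 cells, the Arf transcript was 26.3-fold lower there and Cdkn2b, which encodes p15Ink4b, 7.47-fold lower. These values take the mESC reads as free of error and are not bounds. The 95% exact interval of the read ratio, which counts that error too and all transcripts of a gene, had its upper limit at -4.88 on the log2 scale for Cdkn2a and at -2.58 for Cdkn2b. NIH3T3 is known as a line without functional Arf, and whether the locus is present in these cells was not tested.

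In chromatin, Ctr9 was called at 6 of the 8 genes in mESCs and at 4 in NIH3T3 cells. In mESCs the 6 were Trp53, Mdm2, Ccng1, Gadd45a, Cdkn1a and Cdkn1b, which are also the 6 with at least 10 TPM there. Of all protein-coding genes 45.6% had an mESC Ctr9 peak in this window, and of those with at least 10 TPM 88.0% did, so 6 of 6 was near the background of genes at such levels. In NIH3T3 cells Trp53, Mdm2, Gadd45a and Cdkn1a had a Ctr9 peak, while Ccng1 and Cdkn1b had none. There the background was 26.9% of all protein-coding genes and 58.0% of those with at least 10 TPM. The mESC list holds 44748 Ctr9 peaks and the NIH3T3 list 22016, and with the mESC list reduced to the same number of strongest peaks, a comparison added after the values were seen, the count in mESCs was still 6.

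**Figure D2:**
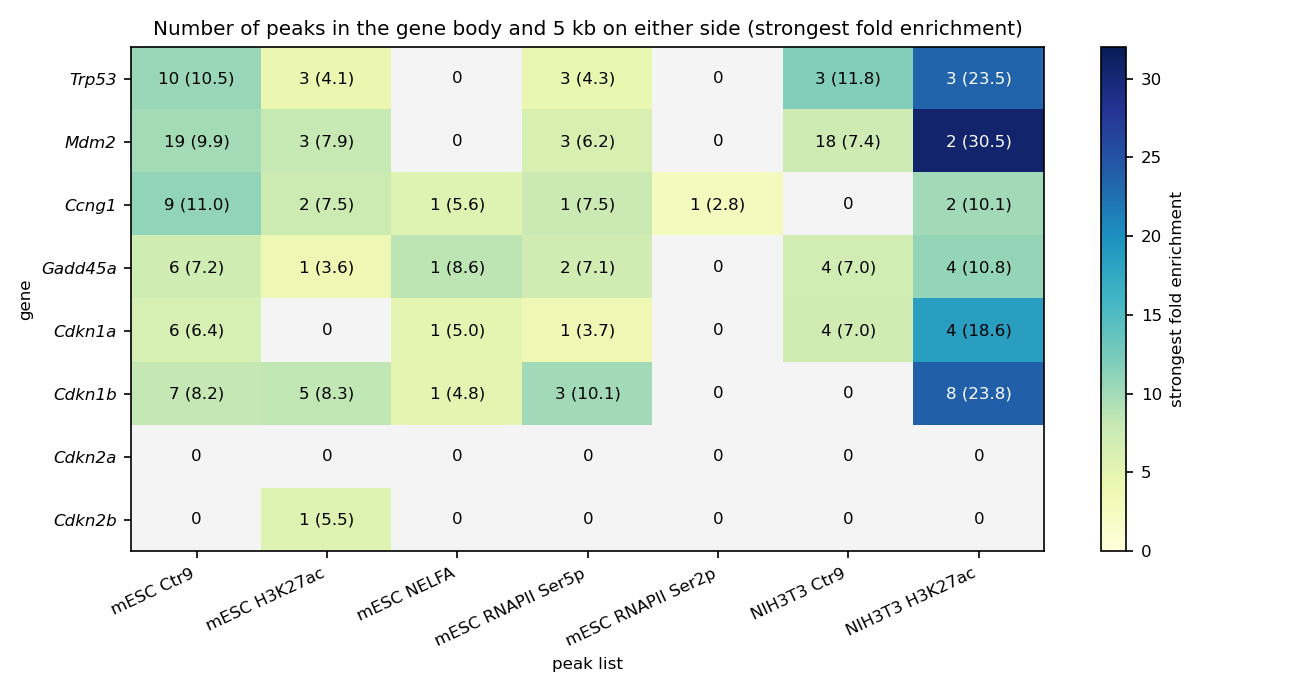
Rows are the 8 genes and columns the 7 peak lists, each cell giving the number of peaks in the gene body and 5 kb on either side, with the strongest fold enrichment in brackets and as the colour. Mdm2 had the most Ctr9 peaks, 19 in mESCs and 18 in NIH3T3 cells, Ccng1 and Cdkn1b had none in NIH3T3 cells, and Cdkn2a had no peak of any list.

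The 6 bound genes held 57 Ctr9 peaks in mESCs, of which 3 had their summit upstream, 37 in the gene body and 17 downstream. The 4 bound genes of NIH3T3 cells held 29, with 0 upstream, 26 in the body and 3 downstream. Overlap was unequal in both directions, since 22 of the 57 mESC peaks (38.6%) met an NIH3T3 peak and 23 of the 29 NIH3T3 peaks (79.3%) met an mESC peak. Of all peaks in the lists, 17.8% and 39.1% met a peak of the other line, and of those within 5 kb of a protein-coding gene or in its body 18.5% and 40.6% did. The shares at the 8 genes were above these without a test, and Mdm2 alone gave 10 of the 22 and 14 of the 23. Of the mESC peaks 35 had no counterpart, 16 of them at Ccng1 and Cdkn1b. Fold enrichments, which set the reads at a summit against the background around it, are compared only within a list.

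In mESCs the strongest Ctr9 summit of each bound gene lay past its annotated end, in 6 of 6 genes, a count made after the values were seen. Across all protein-coding genes with an mESC Ctr9 peak this held for 55.0%, and in NIH3T3 cells for 2 of the 4 bound genes against 40.1% of all bound genes. The mESC summit at Ccng1 lay 673 bps past the gene end with a fold enrichment of 11.0, in a peak of 3631 bps, and that at Trp53 lay 538 bps past the end with 10.5. At Mdm2 it lay 1285 bps past the end with 9.88, in a peak of 3054 bps, and at Cdkn1b 2196 bps past with 8.22. Gadd45a and Cdkn1a had theirs 1170 bps and 171 bps past the end, with 7.22 and 6.41. In the windows of these 6 genes the highest Ctr9 enrichment thus lay beyond the annotated end, but a peak there can belong to a neighbouring gene. The Cdkn1b summit lies between Cdkn1b and the RNA gene Lockd, described below. Cpm, a carboxypeptidase gene on the other strand, ends 1523 bps past the Mdm2 end, under the same Ctr9 peak, and was at 0.594 TPM in mESCs and 0 in NIH3T3 cells.

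**Figure D3:**
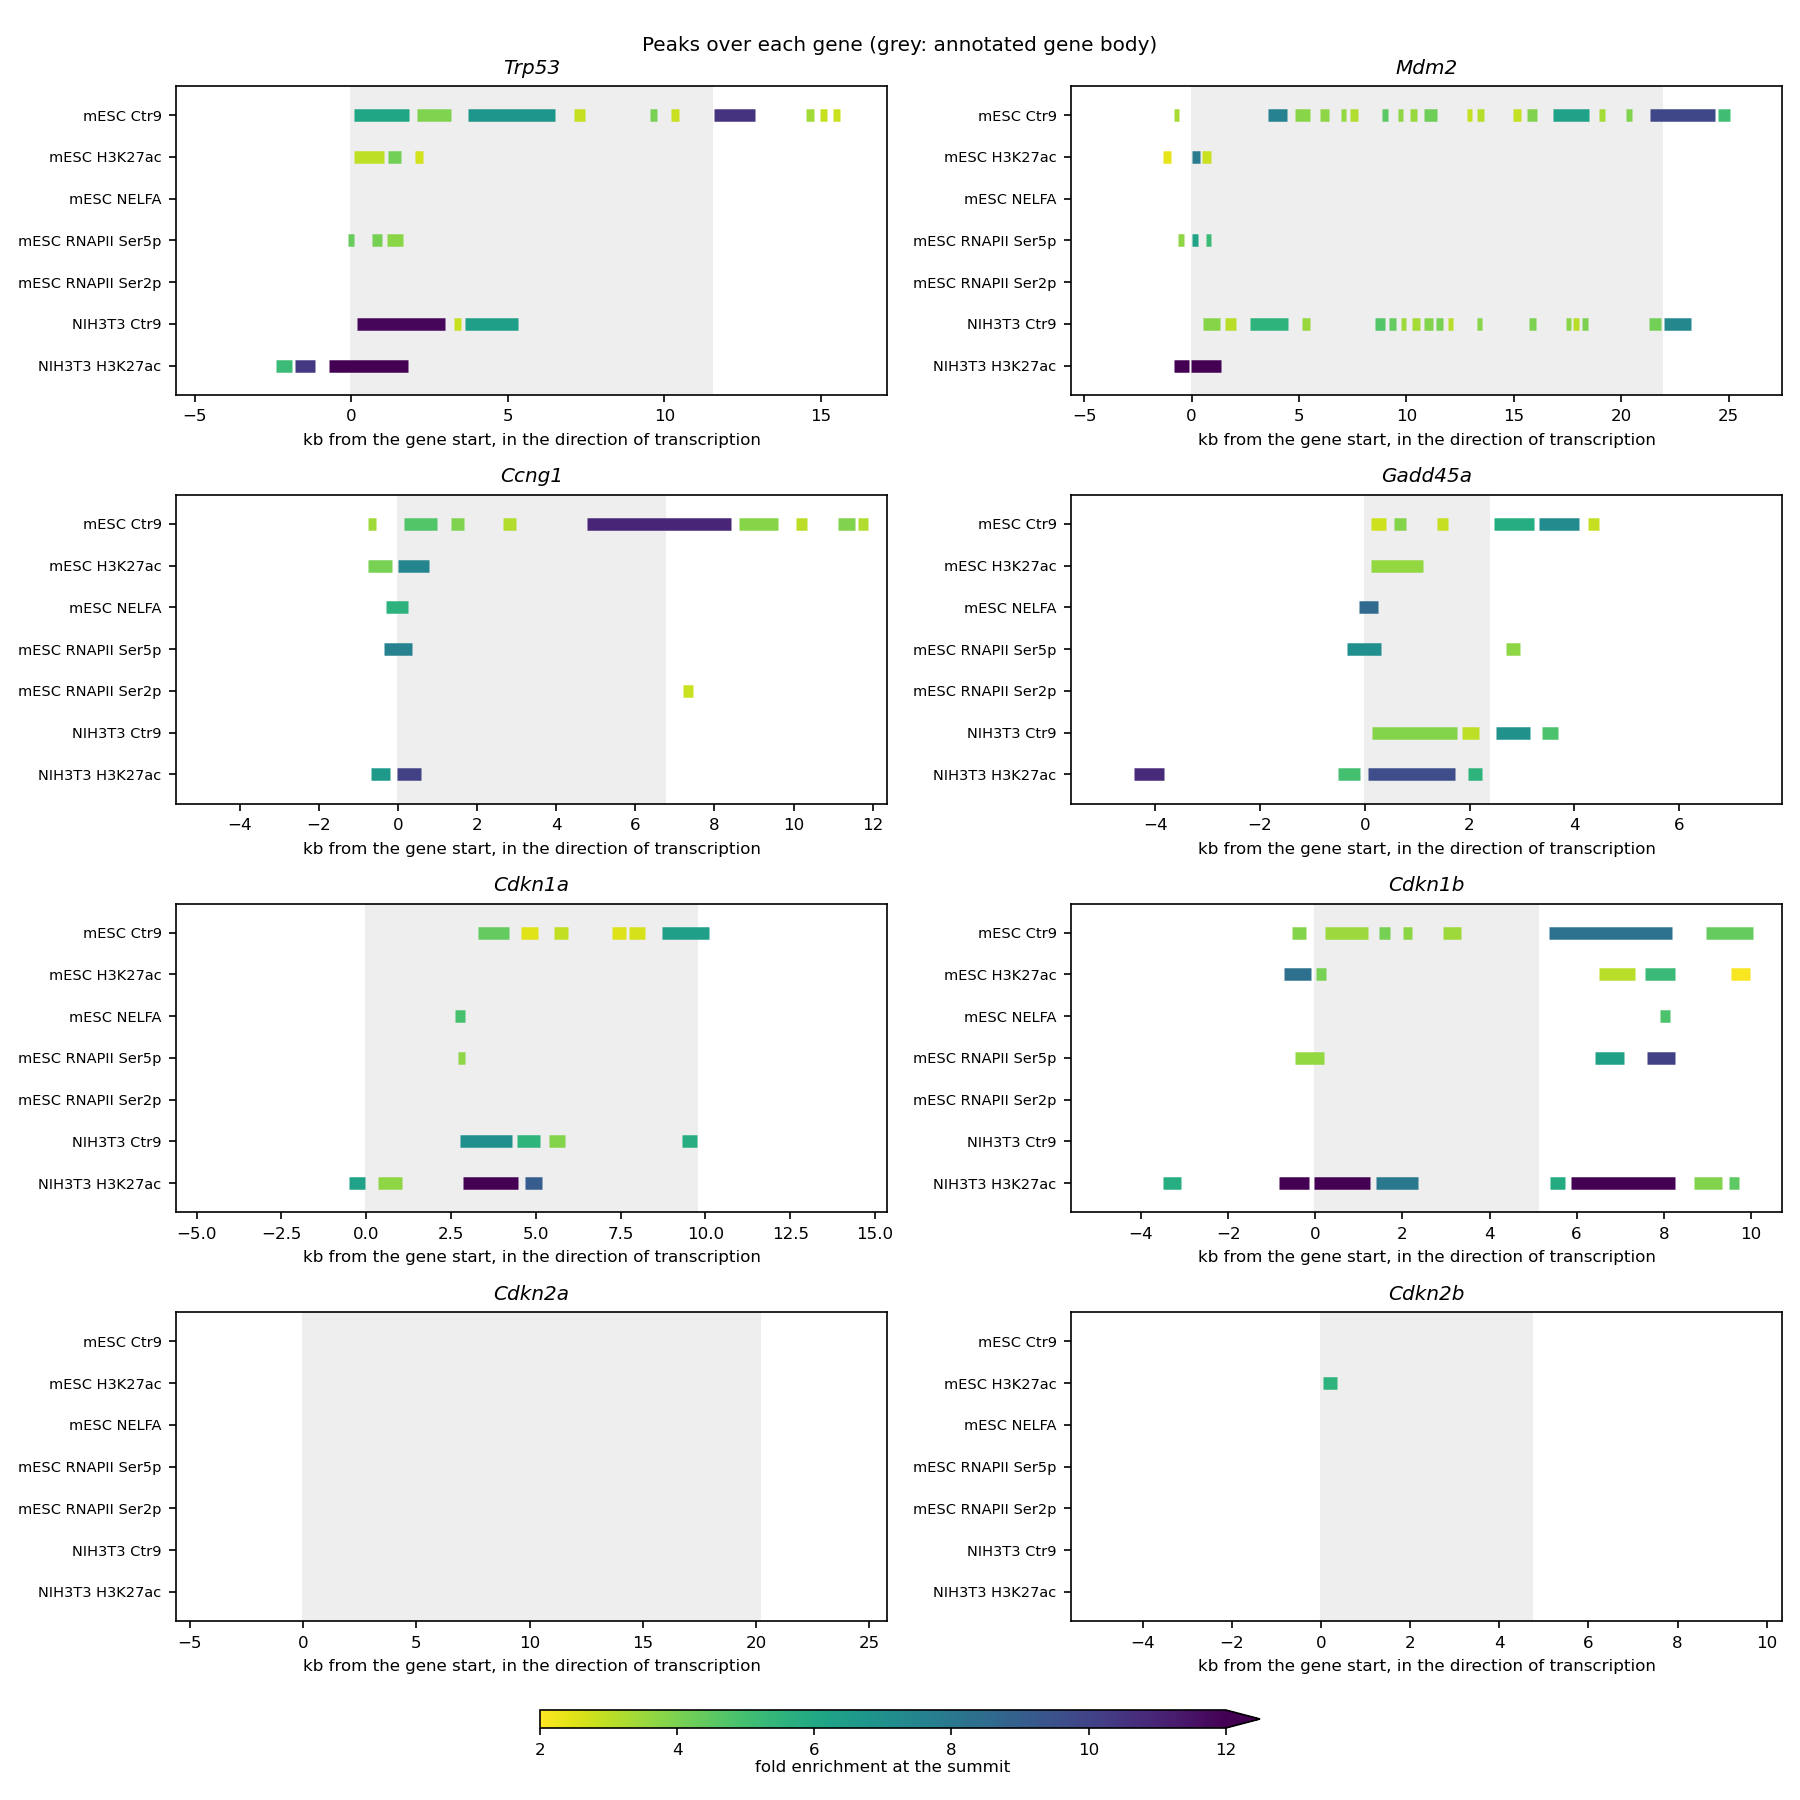
Each panel is 1 gene, with distance from the annotated gene start in kb on the x axis (positive in the direction of transcription), the 7 peak lists as rows, bars for peaks coloured by fold enrichment at the summit, and the gene body in grey. In mESCs the darkest Ctr9 bar of each bound gene reaches beyond the grey body, whereas in NIH3T3 cells that of Trp53 lies near the start, at 709 bps.

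The strongest Ctr9 peak lay past the gene end in mESCs and inside the gene in NIH3T3 cells at Trp53 and Cdkn1a, and past the end in both lines at Mdm2 and Gadd45a. In mESCs Trp53 carried 10 Ctr9 peaks, with the strongest beyond the end and a fold enrichment of 6.09 at 722 bps past the start. In NIH3T3 cells it carried 3 peaks, the last of which ended 5335 bps past the start, and the strongest, with a fold enrichment of 11.8, summited at 709 bps. No NIH3T3 Ctr9 peak was called past the Trp53 gene end. At Mdm2, by contrast, 16 of the 19 mESC peaks and 17 of the 18 NIH3T3 peaks had their summit in the body, and both lists had their strongest peak just past the end, in NIH3T3 cells with a fold enrichment of 7.35 at 717 bps past it. Cdkn1a had its strongest NIH3T3 Ctr9 peak, with a fold enrichment of 7.04, 3593 bps past the gene start and so beyond the downstream start. Gadd45a had its strongest NIH3T3 Ctr9 peak 428 bps past the end, with a fold enrichment of 6.97. It did not overlap the strongest mESC peak, but both sites carried a peak in both lines. The weaker peak had a fold enrichment of 5.80 in mESCs and 4.83 in NIH3T3 cells.

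RNA level and Ctr9 calls did not go together at Ccng1. It had the higher RNA level in NIH3T3 cells, 109 TPM against 69.9 TPM, but 0 Ctr9 peaks there against 9 in mESCs. Cdkn1b had 7 Ctr9 peaks in mESCs and 0 in NIH3T3 cells, with 29.5 TPM and 16.6 TPM. This RNA difference was within 2-fold, and its size depended on how a gene level was made. The estimated reads of Cdkn1b were nearly equal, 2445 and 2429. Gadd45a had 6 and 4 peaks at a 3.72-fold difference in RNA, but these covered 2475 bases of its window in mESCs and 2884 bases in NIH3T3 cells. The methods give a target number of reads for ChIP-seq, but the depth reached in each library is not given in the sources used here, so a missing call says only that no peak passed the authors' q-value limit in that library.

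H3K27ac was called at 6 of the 8 genes in each line, but not at the same ones. In mESCs the marked genes were Trp53, Mdm2, Ccng1, Gadd45a, Cdkn1b and Cdkn2b, against 44.5% of all protein-coding genes and 87.2% of those with at least 10 TPM. Cdkn2b, at 0.874 TPM in mESCs, is not among the latter. In NIH3T3 cells they were Trp53, Mdm2, Ccng1, Gadd45a, Cdkn1a and Cdkn1b, against 56.0% and 97.5%. Cdkn1a thus had 0 H3K27ac peaks in mESCs and 4 in NIH3T3 cells, where its RNA was higher, and the strongest of them, with a fold enrichment of 18.6, had its summit 4084 bps past the gene start. A weaker one, with a fold enrichment of 6.24, ended on the first base of the p53 response element printed above, 1 bp of overlap. The NIH3T3 list is larger, 34241 peaks against 19417, and reduced to that number of strongest peaks, a comparison added after the values were seen, it still marked 6 of the 8 genes.

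Cdkn2b was the reverse, with 1 H3K27ac peak in mESCs and none in NIH3T3 cells. That peak was 315 bps wide, had a fold enrichment of 5.53 and summited 218 bps past the start of a gene with 0.874 TPM. Over the 8 genes 12 of 15 mESC H3K27ac peaks (80.0%) overlapped an NIH3T3 peak, and 9 of 23 NIH3T3 peaks (39.1%) overlapped an mESC peak. Over all H3K27ac peaks these shares were 47.1% and 24.8%, and over those at protein-coding genes, by the same window, 61.6% and 29.9%. The highest H3K27ac enrichment at any of these genes in NIH3T3 cells was at Mdm2, 30.5 at 214 bps past the start, and in mESCs at Cdkn1b, 8.30 at -337 bps from the start.

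NELFA was called at 4 of the 8 genes, Ccng1, Gadd45a, Cdkn1a and Cdkn1b, against 10.8% of all protein-coding genes and 25.6% of those with at least 10 TPM. RNAPII Ser5p was called at these and at Trp53 and Mdm2, 6 in all, against 13.4% and 31.5%. These 6 are the genes with at least 10 TPM in mESCs, so 4 of 6 and 6 of 6 stand beside 25.6% and 31.5%. Each of the 4 NELFA summits had a Ser5p summit close by, at a distance of 1 bp in Ccng1, 43 bps in Gadd45a, 9 bps in Cdkn1a and 5 bps in Cdkn1b. The share of all NELFA summits with a Ser5p summit this close was not counted. The strongest NELFA peak was that of Gadd45a, with a fold enrichment of 8.59, 82 bps past the gene start. Gadd45a had another RNAPII Ser5p peak 488 bps past its end, with a fold enrichment of 3.69. Trp53 and Mdm2 had RNAPII Ser5p near the start, at 59 bps and 190 bps, without a NELFA peak, and the NELFA list holds only 1980 peaks.

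At Cdkn1a both marks sat at the downstream start, the one with most of the RNA. The NELFA summit lay 31 bps before that start and the RNAPII Ser5p summit 22 bps before it, within the sequence with TATAA shown above, with fold enrichments of 4.96 and 3.71. AC167363.2, an unclassified gene on the other strand over the downstream start, was at 0 TPM in both libraries. No NELFA or RNAPII Ser5p peak was called at the upstream start with the p53 response element. At Ccng1 the p53 match in the intron, 366 bps past the start, lay wholly under mESC peaks of Ctr9 and H3K27ac and an NIH3T3 peak of H3K27ac, while the mESC RNAPII Ser5p peak covered 2 of its 20 bases.

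At Cdkn1b the strongest RNAPII Ser5p peak and the NELFA peak lay beyond the gene. The RNAPII Ser5p summit was 2880 bps past the end with a fold enrichment of 10.1, and NELFA 2885 bps past it with 4.83, while the Ser5p peak at the start had 3.62. The same place carried the strongest H3K27ac peak of Cdkn1b in NIH3T3 cells, with a fold enrichment of 23.8 at 2581 bps past the end, and an mESC H3K27ac peak with 5.23. The long intergenic RNA gene Lockd starts 3579 bps past the Cdkn1b end on the same strand, and was at 12.6 TPM in mESCs and 30.0 TPM in NIH3T3 cells. Peaks in this interval can belong to either gene, and Gm44238, a noncoding gene at the Lockd start on the other strand, was at 0 in both libraries.

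RNAPII Ser2p was called only at Ccng1, against 7.52% of all protein-coding genes and 17.2% of those with at least 10 TPM. The peak lay 588 bps past the Ccng1 end, 85 bps from the strongest Ctr9 summit of that gene, and had a fold enrichment of 2.81. Its -log10 q of 2.01 was at the limit of the list, and with a limit of 5 none of the 8 genes had an RNAPII Ser2p peak.

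Cdkn2a had no peak of any of the 7 lists. Around it and Cdkn2b, the stretch of chromosome 4 without a Ctr9 peak was 2189 kb in mESCs and 5375 kb in NIH3T3 cells, while that without H3K27ac was 173 kb and 157 kb, measured outwards from the midpoint between both genes, a measure chosen after the values were seen. The mESC stretch ended on 1 side at the H3K27ac peak of Cdkn2b itself. The nearest H3K27ac peaks in NIH3T3 cells ended at chr4:89235259 and began at chr4:89392460. Gm12606, a noncoding gene 1068 bps past the Cdkn2a end, was at 0.195 TPM and 0.148 TPM. Mtap, the next protein-coding gene on that side with at least 1 TPM, which encodes an enzyme of methionine salvage, was at 25.1 TPM in mESCs and 234 TPM in NIH3T3 cells.

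The wider pathway was described with lists of related genes. Of 17 p53 regulators with at least 1 TPM in either library, 6 (35.3%) were at least 2-fold higher in mESCs and 1 (5.88%) in NIH3T3 cells, against 23.8% and 20.0% of all genes tested. Their median log2 ratio was -0.83, against -0.13 over all genes tested. The deacetylase gene Sirt1 was at 56.1 TPM in mESCs and 4.58 TPM in NIH3T3 cells. The deubiquitinase gene Usp7, whose product stabilises Mdm2 and p53, was at 116 TPM and 32.4 TPM. The checkpoint kinase genes Chek1 and Chek2 were also higher in mESCs, at 80.2 TPM and 26.7 TPM and at 26.6 TPM and 6.20 TPM.

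Of 32 p53 target genes, 4 of them among the 8 genes described here, 12 (37.5%) were at least 2-fold higher in mESCs and 5 (15.6%) in NIH3T3 cells, against 23.8% and 20.0% of all genes tested. Their median log2 ratio was -0.59, against -0.13. The apoptosis gene Bax was at 159 TPM in mESCs and 85.2 TPM in NIH3T3 cells, and Gtse1, a cell cycle gene whose product restrains p53, at 69.7 TPM and 16.4 TPM. Perp, an apoptosis effector and desmosome gene, was at 54.2 TPM in mESCs and listed at 0 in NIH3T3 cells. The death receptor gene Fas went the other way, with 0.0941 TPM and 29.2 TPM, as did the kinase gene Plk2, with 14.2 TPM and 86.1 TPM. Targets of p53 thus lay on both sides, as Cdkn1a and Gadd45a did.

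**Figure D4:**
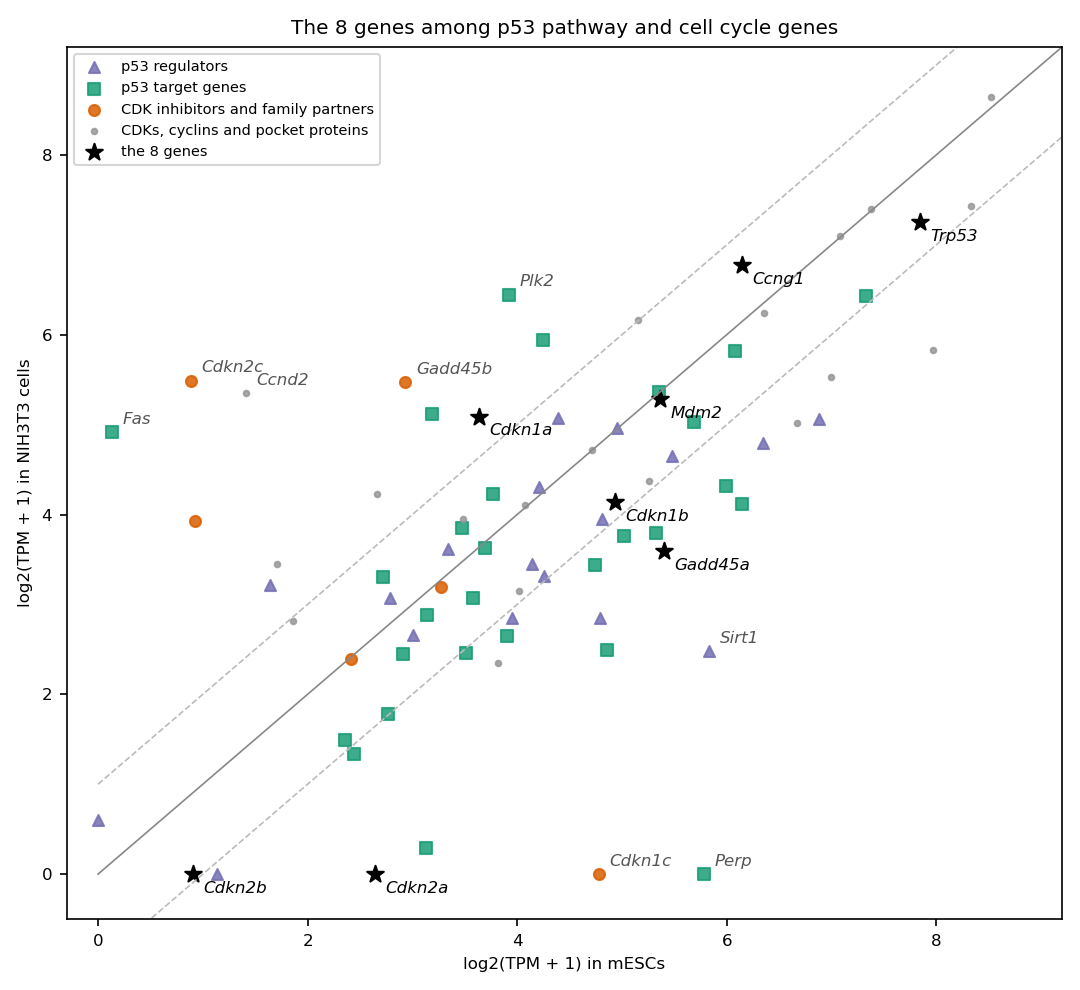
Each point is 1 gene, with log2(TPM + 1) in mESCs on the x axis and in NIH3T3 cells on the y axis, stars for the 8 genes and other symbols for the 4 lists. The solid line marks equal levels and the dashed lines 2-fold on this scale; Cdkn1a lies above the band, Gadd45a and Cdkn2a lie below it, and Cdkn1c and Perp lie on the lower edge at 0 in NIH3T3 cells.

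The other CDK inhibitors and the relatives of Ccng1 and Gadd45a were 6 genes, of which 3 were at least 2-fold higher in NIH3T3 cells and 1 in mESCs, against 20.0% and 23.8% of all genes tested, with a median log2 ratio of 1.26 against -0.13. Cdkn1c, which encodes p57 and is imprinted, was at 26.5 TPM in mESCs and listed at 0 in NIH3T3 cells. Cdkn2c, which encodes p18Ink4c, was at 0.851 TPM and 43.9 TPM. Cdkn2d was at 4.35 TPM and 4.25 TPM. Of the Cdkn1 genes, Cdkn1c was thus at least 2-fold higher in mESCs and Cdkn1a in NIH3T3 cells. Of the Cdkn2 genes, Cdkn2c was higher in NIH3T3 cells and Cdkn2a in mESCs. In mESCs 91.5% of the Cdkn2a level was the Arf transcript, and the p16Ink4a transcript was at 0.491 TPM. Gadd45b was at 6.64 TPM and 43.4 TPM, opposite in direction to Gadd45a.

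The last list held 19 genes of CDKs, cyclins, pocket proteins and other cell cycle factors such as Pcna. In each line 4 of them (21.1%) were at least 2-fold higher, against 20.0% and 23.8% of all genes tested in NIH3T3 cells and mESCs. The median log2 ratio was 0.02. Cdk4 was the most abundant, at 367 TPM in mESCs and 398 TPM in NIH3T3 cells. Pcna, which encodes the sliding clamp of replication, was at 322 TPM and 171 TPM, the mitotic cyclin gene Ccnb1 at 249 TPM and 55.9 TPM, and the G1 cyclin gene Ccnd2 at 1.65 TPM and 39.7 TPM. Ctr9 was called at 16 of these 19 genes in mESCs and 11 in NIH3T3 cells, at 25 and 14 of the 32 p53 targets, at 15 and 11 of the 18 p53 regulators and at 2 and 1 of the 6 inhibitors and relatives. Beside these stand the shares given above, 45.6% and 26.9% of all protein-coding genes, and 88.0% and 58.0% of those with at least 10 TPM.

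By distance in log2(TPM + 1) over the 2 RNA-seq libraries, each of the 8 genes had a nearest gene among 71 others of these lists. For Mdm2 it was Aen, a p53-induced nuclease gene, at 39.9 TPM and 40.3 TPM and a distance of 0.08. For Gadd45a it was Sesn2, a stress-induced sestrin gene, at 39.1 TPM and 12.9 TPM and a distance of 0.22. Cdkn1b was nearest to Ep300 (0.22), Cdkn2b to Trp73 (0.23), Cdkn1a to Ephx1 (0.44), Trp53 to Cdk1 (0.48), Cdkn2a to Pmaip1 (0.57) and Ccng1 to Ccna2 (0.58). With 2 libraries such a likeness rests on 2 values per gene.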

How the data were processed

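ChIP-seq reads were aligned by the authors with Bowtie2 2.3.5.1 to mm10, reads in blacklisted regions were removed, and peaks were called per library with MACS2 2.2.6 at a q-value limit of 0.01. The deposited lists give a score (10 times -log10 q, as a whole number), the fold enrichment as a ratio at the summit, and -log10 p and -log10 q. For RNA-seq the authors deposited estimated counts and TPM per transcript from kallisto 0.46.1 on GENCODE M19. Estimated counts summed to 26400407 in mESCs and 28849497 in NIH3T3 cells, whereas for ChIP-seq only a target depth is stated and that reached is unknown. The 3 input libraries were not used here.

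A gene took the TPM of its most abundant transcript, with a pseudocount of 1 and a limit of 1 TPM in either library. Intervals (95%, exact Poisson, or Clopper-Pearson for a ratio) used counts rounded to whole numbers. Named were the 8 genes, the 3 most abundant and the 2 most changed genes of each list (at least 10 TPM), nearest genes and overlapping neighbours. The members and lists were chosen with earlier results of these data known. Overlap, interval and motif code was tested on simulated data (5 of 5 checks passed), using SciPy 1.17.1, NumPy 2.4.6, pandas 2.3.3 and Matplotlib 3.10.9 under Python 3.11.15. No peak reached past a chromosome end of GRCm38.p6. Alternatives were 35 fixed and 6 added after the data were seen.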

Additional observations from a re-analysis of the deposited data

How the results depend on the processing

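Of 97 values under the alternatives, 83 stayed within counting error or within 1.5 times a count. Most of those that moved were log2 ratios of the members, of which 12 moved and 20 stayed. With coding transcripts only these ratios, and so the counts of members, could not change, because the most abundant transcript of each member was coding. No difference of 2-fold or more was reversed, but among the members only Gadd45a, Cdkn1a and Cdkn2a had one to reverse. The counts of members higher in either line were the same under summed transcripts, a pseudocount of 0.1, no TPM limit, coding transcripts only and centring on the median of all genes. With summed transcripts the log2 ratio was -0.53 for Trp53, -0.37 for Mdm2, -1.44 for Gadd45a, 1.20 for Cdkn1a and -0.52 for Cdkn1b, and 2 p53 regulators in place of 1 were higher in NIH3T3 cells. With a pseudocount of 0.1 it was -5.74 for Cdkn2a and -3.28 for Cdkn2b, both at 0 in NIH3T3 cells. Minus the median of all genes, an alternative chosen after seeing the data, it was -0.45 for Trp53, 0.052 for Mdm2, 0.76 for Ccng1, 1.59 for Cdkn1a and -0.66 for Cdkn1b, so the sign of Mdm2 depended on the scaling. With -log10 q of at least 5, 0 members had an RNAPII Ser2p peak, since the only such peak was at the limit of the list. With 1 kb on each side in place of 5 kb, 3 members in place of 4 had a NELFA peak.

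Each measurement is 1 library, so differences between cell types cannot be told apart from differences between libraries. The depth reached by each ChIP-seq library is unknown. Read intervals leave out the uncertainty of assigning reads to transcripts, which was not measured. No paired analysis was possible because no group compared here has a replicate.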
